A study of Mus musculus with 3 samples.

Results

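Glycolysis splits glucose into pyruvate in the cytosol, and lactate dehydrogenase turns pyruvate into lactate. The 10 genes described here encode an enzyme for each step of that route except enolase, with lactate dehydrogenase A at its end: *Hk2*, *Gpi1*, *Pfkl*, *Aldoa*, *Tpi1*, *Gapdh*, *Pgk1*, *Pgam1*, *Pkm* and *Ldha*. They were taken by their symbols, and all 10 were found among the 24062 genes counted in the anterior part of the embryo head, the rostrum. The RNA-Seq libraries came from wild-type embryos of the 3H1 Balb strain and from *tuft* embryos of the same background, which are homozygous for a nonsense mutation in *Tet1*, the gene of a methylcytosine dioxygenase, and whose neural tube had failed to close. All embryos were at E9, with 18 to 22 somites in the labels. RNA of 3 embryos was pooled for a library, and 1 column of counts per genotype was analyzed, so no value below has a replicate error and no p-value is given. The *tuft* mutation arose spontaneously and is carried in the germ line. The sample records hold 2 *tuft* entries and 1 wild-type entry, and the *tuft* column could not be tied to either entry.

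The embryo before and during neural tube closure relies strongly on glycolysis, and much of its glucose leaves as lactate. Hexokinase and phosphofructokinase spend ATP in the first phase, aldolase and triosephosphate isomerase yield the 3-carbon sugars, and the enzymes from *Gapdh* to *Pkm* recover ATP and NADH. Known targets of the hypoxia-inducible factor include *Hk2*, *Pfkl*, *Aldoa*, *Pkm* and *Ldha*. This list is not complete, and the enzymes left out of it are not thereby excluded as targets. *Gapdh* was also the gene to which the study's qPCR was normalized.

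Counts on genes summed to 6433067 in *tuft* and 14251942 in wild type. A count is worth 0.155 counts per 1000000 gene counts (CPM) in *tuft* and 0.0702 in wild type. Fold changes are *tuft* over wild type after the trimmed mean of M-values (TMM) normalization, whose factor (*tuft* over wild type) was 0.761, and carry an exact 95% interval that covers counting error only. *Tet1* had 32 counts in *tuft* against 435 in wild type, with a fold change of 0.214 (0.145 to 0.307). Of 10 markers of the rostral neuroectoderm, 9 had counts in *tuft* and all 10 in wild type. *Hesx1* was the marker at 0, and *Rax* had 2 counts in *tuft* against 389 in wild type. These 2 were past 2-fold lower, and 2 others were past 2-fold higher. The higher ones were *Six3*, with a fold change of 4.14 (3.81 to 4.50), and *Sox1*, with 3.16 (2.87 to 3.47). This is 40% in all, beside 58.9% of the genes that reached 10 counts over both libraries. Globin genes took 3.55% of gene counts in *tuft* but 0.315% in wild type, and the ribosomal RNA gene *Rn45s* took 0.765% but 4.50%. In pooled tissue, fewer cells of a kind and less RNA per cell cannot be told apart.

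Of the 10 glycolysis enzymes, 9 were within 2-fold of their wild-type level in the *tuft* library, and *Gpi1* was past it. *Gpi1*, which converts glucose-6-phosphate to fructose-6-phosphate, was 2.52-fold lower, and 0 of the 10 were 2-fold higher. Among the 13979 genes that reached 10 counts over both libraries, 58.9% were past 2-fold, 37.5% lower and 21.3% higher. Genes with few counts have wide counting intervals, so the 6937 genes at or above the mean level of the lowest member, *Gapdh*, are given as well. Of these, 47.7% were past 2-fold, 20.7% lower and 27.0% higher. The median log2 fold change of the 10 enzymes was -0.42, against 0.14 for those 6937 genes and -0.45 for all 13979. The median size of the log2 fold change, whatever its sign, was 0.60 for the enzymes and 0.94 for the 6937 genes. The counts past 2-fold depend on the scaling. With library totals alone, which moves every gene by -0.39 on the log2 scale, 4 of the 10 (*Gpi1*, *Gapdh*, *Hk2* and *Tpi1*) were past 2-fold lower. Under that scaling, so were 46.0% of the 13979 genes and 29.2% of the 6937. The medians moved by the same amount, to -0.82 for the enzymes, -0.25 for the 6937 genes and -0.85 for all 13979.

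**Figure D1:**
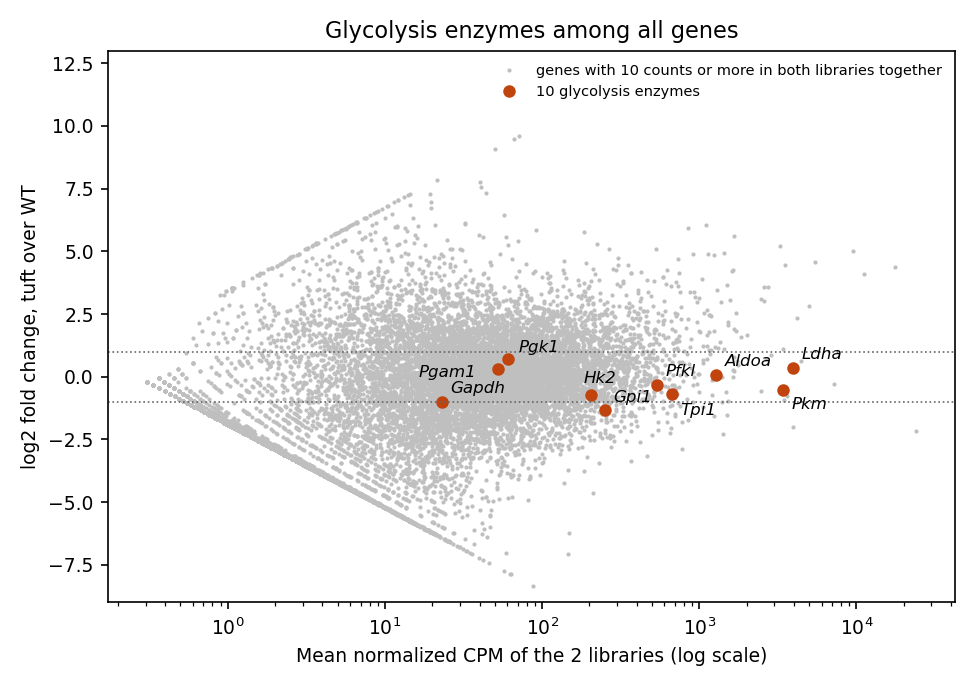
Log2 fold change of *tuft* over wild type against the mean normalized CPM of the 2 libraries on a log axis, for the 13979 genes that reached 10 counts over both libraries (gray) and the 10 glycolysis enzymes (red). Counts under 3 were set to 3, which draws the diagonal edges, and dotted lines mark 2-fold. The enzymes lie between -1.34 and 0.72, and *Gpi1* is the point outside the dotted lines.

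The enzymes differed strongly in level. Per kilobase of transcript, *Ldha* stood first in both libraries, with 2251 CPM in wild type and 2200 in *tuft*. *Pkm*, pyruvate kinase of muscle and embryo, was second with 2085 and 1097 CPM per kilobase. *Aldoa* followed with 922 and 744, and *Tpi1* with 592 and 282. *Gpi1* (203) was above *Pfkl* (183) in wild type, whereas in *tuft* *Pfkl* (112) was above *Gpi1* (61.3). *Hk2*, *Pgk1*, *Pgam1* and *Gapdh* were the lowest in both libraries, from 24.7 to 53.6 CPM per kilobase in wild type and from 9.41 to 36.3 in *tuft*. Among these, neighbors in the order with overlapping 95% counting intervals were *Pgam1* and *Pgk1* and, narrowly, *Pgk1* and *Gapdh* in wild type, and *Pgam1* and *Hk2* in *tuft*. *Gapdh* was last in both, although it is known as one of the most abundant transcripts of most cells.

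**Figure D2:**
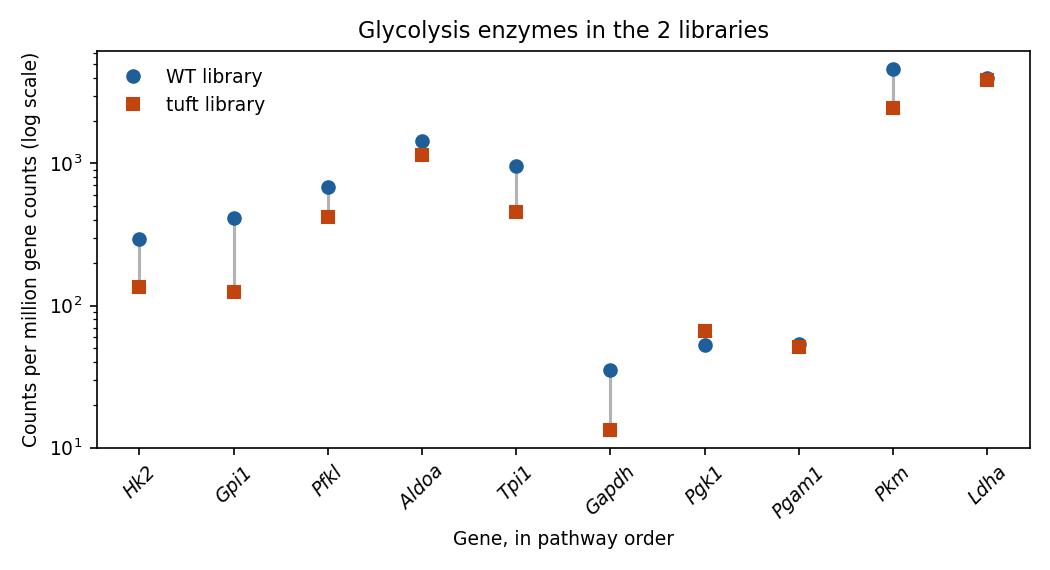
Counts per 1000000 gene counts (CPM) on a log axis for each enzyme in pathway order, in the wild-type library (blue circles) and the *tuft* library (red squares), with 1 library per genotype. Values run from 13.4 CPM for *Gapdh* in *tuft* to 4630 CPM for *Pkm* in wild type, and *Pgk1* is the gene whose *tuft* point lies above the wild-type point.

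Summed over the 10 enzymes, 56196 counts were found in *tuft* and 178425 in wild type. They made up 0.874% (0.866 to 0.881) of the gene counts in *tuft* and 1.25% (1.246 to 1.258) in wild type. After TMM normalization the sum was 0.917-fold (0.908 to 0.926), and with library totals alone 0.698-fold. Without *Rn45s* and globin genes in the denominator, the shares were 0.913% and 1.32%. *Ldha* and *Pkm* together held 72.4% of these counts in *tuft* and 68.7% in wild type. Their balance differed between the libraries. *Ldha* had 1.59 counts per *Pkm* count in *tuft* against 0.859 in wild type, a 1.86-fold difference in a ratio that no scaling between libraries can change.

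Steps of the first phase came out lower or level in *tuft* (gene positions are in GRCm38). *Hk2* (chr6:82725025-82774454, minus strand), which traps glucose in the cell as glucose-6-phosphate, had 866 counts in *tuft* against 4210 in wild type, with a fold change of 0.599 (0.556 to 0.645). *Gpi1* (chr7:34201327-34230336, minus strand) had 803 and 5903 counts, which is 124.8 and 414 CPM, and a fold change of 0.396 (0.368 to 0.426). *Gpi1* was thus the member farthest from its wild-type level, although 47.8% of the 13979 genes had a larger change. *Pfkl* (chr10:77986947-78009807, minus strand), the liver type subunit of phosphofructokinase and the committed step of the pathway, had 2692 and 9753 counts, with a fold change of 0.804 (0.770 to 0.839). *Aldoa* (chr7:126795234-126800994, minus strand), which cleaves fructose-1,6-bisphosphate, had 7416 and 20345 counts, with a fold change of 1.06 (1.03 to 1.09). This was the smallest change of the 10 enzymes, and its direction reversed with library totals alone. *Tpi1* (chr6:124810586-124814158, minus strand), which interconverts the products of aldolase, had 2913 and 13559 counts, with a fold change of 0.626 (0.601 to 0.651). It overlaps the gene *Spsb2*. No source used here gives the strand setting of the counting, so the effect of such an overlap on the counts is not known. Entries ambiguous between genes, 0.667% in *tuft* and 0.526% in wild type, lie outside the gene counts.

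In the second phase the enzymes diverged. *Gapdh* (chr6:125161852-125166467, minus strand), which couples oxidation of glyceraldehyde-3-phosphate to NADH, had 86 counts in *tuft* against 499 in wild type, with a fold change of 0.502 (0.394 to 0.632). It sat just inside the 2-fold limit and just outside it with the upper-quartile factor (log2 fold change -1.04). *Pgk1* (chrX:106187100-106203699, plus strand), the first ATP-forming enzyme, had 426 and 751 counts and the highest fold change of the 10, 1.65 (1.46 to 1.86). The fold changes of the neighboring steps *Gapdh* and *Pgk1* thus lay on opposite sides of 1, with intervals that did not meet. Those intervals cover counting error only. Most of both transcripts has near-identical copies elsewhere in the genome, and their part in the fold changes was not tested. *Pgam1* (chr19:41911871-41918665, plus strand), which moves the phosphate of phosphoglycerate, had 327 and 764 counts, with a fold change of 1.25 (1.09 to 1.42). *Pkm* (chr9:59656576-59679372, plus strand), which forms pyruvate and the last ATP, had 15673 and 65988 counts, with a fold change of 0.692 (0.680 to 0.704). *Ldha* (chr7:46842274-46855627, plus strand), which regenerates NAD+ while forming lactate, had 24994 and 56653 counts, with a fold change of 1.28 (1.27 to 1.30). *Pkm* and *Ldha* each overlap a long noncoding RNA gene, *LOC115487221* and *Gm39011*. With library totals alone, both *Ldha* and *Pgam1* were slightly lower in *tuft* (log2 fold changes of -0.03 and -0.08).

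**Figure D3:**
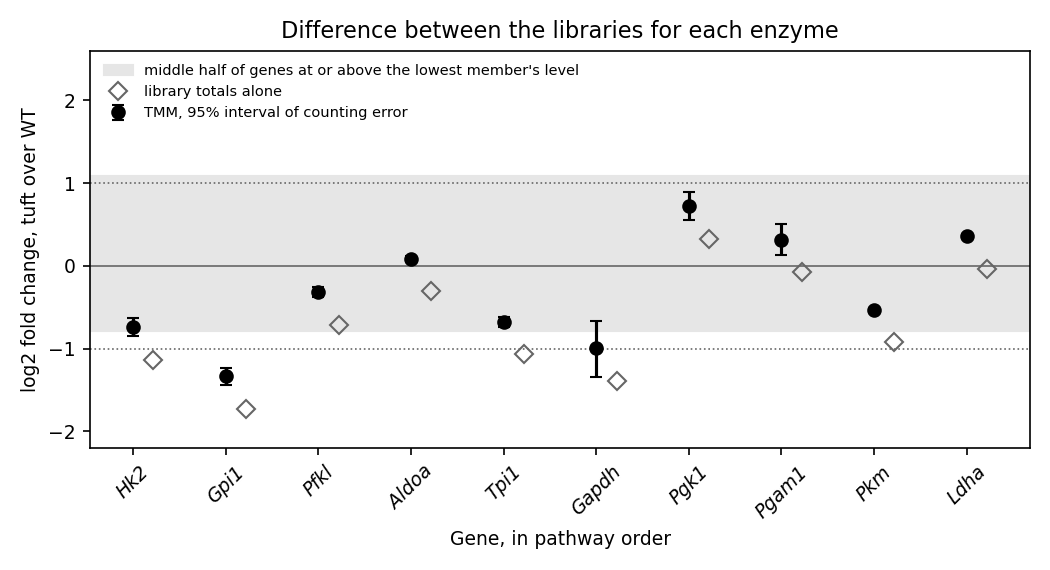
Log2 fold change of *tuft* over wild type for each enzyme in pathway order, with TMM normalization (black circles; bars are 95% intervals of counting error) and with library totals alone (open diamonds). The gray band runs from -0.79 to 1.08, the quartiles of genes at or above the level of the lowest member, and dotted lines mark 2-fold. *Gpi1* is lowest at -1.34 and *Pgk1* highest at 0.72.

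Mammalian genomes carry processed copies of many glycolytic mRNAs, and the counts of most of these enzymes are uncertain to that extent. The longest coding transcript of each gene in NCBIM37 was divided into windows of 100 bases and aligned to the whole genome of that build. *Hk2* had a copy elsewhere for 0 of 542 windows. For *Gapdh*, 88.0% of windows had a copy of at least 95% identity outside the gene, spread over 276 places in the genome. *Pgk1* (95.4%) and *Pgam1* (94.8%) had copies at 6 places each. *Gpi1* had 78.4% of windows copied at a single place, *Pkm* 77.9% at 12 places, *Ldha* 77.2% at 22, *Aldoa* 65.5% at 10 and *Tpi1* 62.9% at 9. At 98% identity the shares were 4.83% for *Aldoa*, 38.4% for *Tpi1* and 40.1% for *Ldha*, and from 63.4% to 94.8% for *Pkm*, *Gpi1*, *Gapdh*, *Pgk1* and *Pgam1*. The 3 genes with the highest shares at 98% identity, *Pgam1*, *Pgk1* and *Gapdh*, had the lowest level per kilobase in wild type. In *tuft*, *Hk2*, with no copied window, was below *Pgam1* and *Pgk1*. Alignments that were not unique made up 59.2% of entries in *tuft* and 51.4% in wild type and are not part of the gene counts. Some copies had counts of their own. *Gm6981* and *Gm12070*, which hold *Gapdh* windows, had 32 and 1 counts in *tuft* against 17 and 3 in wild type. *Gapdh* itself had 86 and 499, so these copies were not small beside it in *tuft*. *Gm6981* had a fold change of 5.48 (2.95 to 10.5), against 0.502 for *Gapdh*. *Gm13315*, which holds *Ldha* windows, had 98 against 151, and *Aldoart2*, which holds *Aldoa* windows, had 13 against 68. The part of copies in the fold changes was not tested. Without *Gapdh*, *Pgk1* and *Pgam1*, the median log2 fold change of the other 7 enzymes was -0.53 and 1 of 7 was past 2-fold.

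**Figure D4:**
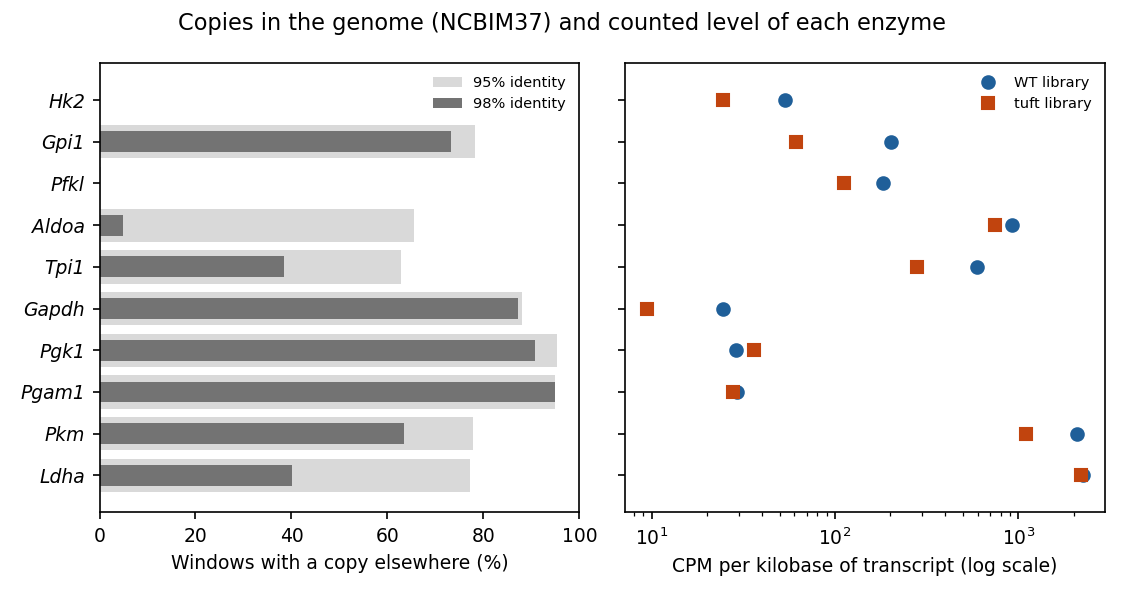
Left, percent of 100-base transcript windows of each enzyme with a copy elsewhere in the NCBIM37 genome at 95% identity (light bars) and 98% identity (dark bars). Right, CPM per kilobase of transcript on a log axis in the wild-type (blue circles) and *tuft* (red squares) libraries. *Gapdh*, *Pgk1* and *Pgam1* have dark bars from 87.2% to 94.8% and wild-type levels from 24.7 to 29.3, and in *tuft* *Hk2*, with no bar, lies at 24.4, below *Pgk1* at 36.3 and *Pgam1* at 27.8.

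Enolase, the step absent from the 10 genes, has counts that lie mostly on a copy. *Eno1*, the ubiquitous enolase, had 0 counts in *tuft* against 22 in wild type, at least 2.52-fold lower if a count of 0 is taken as up to 3 counts. Its intronless copy *Eno1b*, which was looked up after these values had been seen, had 8840 counts in *tuft* against 7391 in wild type. The fold change was 3.48 (3.38 to 3.59). Of the 193 windows of *Eno1*, 163 had a match in *Eno1b*, and counts of the 2 genes cannot be assigned to either with confidence. Among the other enolases, *Eno3*, the muscle form, had a fold change of 1.38 (1.25 to 1.52), *Eno2*, the neuronal form, of 3.36 (2.64 to 4.29) and *Eno4* of 3.05 (2.13 to 4.36).

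Isozymes outside the 10 genes, a longer list with a lower summed level, spanned a wider range of fold changes. Of 21 isozymes, *Hk3*, *Pgk2*, *Ldhc* and *Ldhd* had under 10 counts over both libraries. Of the other 17, 9 were past 2-fold, 4 higher and 5 lower in *tuft*, beside the 58.9% of all genes. Their levels were small, 460 normalized CPM in all in *tuft* and 379 in wild type, against 10015 and 10920 for the 10 enzymes. *Pfkp*, the platelet type subunit of phosphofructokinase, had 283 counts in *tuft* against 181 in wild type, with a fold change of 4.55 (3.76 to 5.52). Per kilobase, it made up 7.87% of the phosphofructokinase level in *tuft* and 1.44% in wild type, and *Pfkl* 83.2% and 86.5%. *Pfkm*, the muscle type, had a fold change of 0.615 (0.530 to 0.712). *Hk1* had 340 and 813 counts, with a fold change of 1.22 (1.07 to 1.38), so that *Hk2* made up 62.1% of the hexokinase level per kilobase in *tuft* and 70.3% in wild type. *Hkdc1* had a fold change of 0.504 (0.374 to 0.670).

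*Pklr*, pyruvate kinase of liver and red cells, had 13 counts in *tuft* against 311 in wild type (fold change 0.122, 0.0641 to 0.211). In these libraries, 9 of 11 markers of yolk sac endoderm, an epithelium with many genes in common with liver, were also past 2-fold lower in *tuft* and 1 was higher. Their summed level was 335 normalized CPM in *tuft* and 2051 in wild type, with *Apoa4* and *Apoa2* at 0 counts in *tuft*. Among the 13979 genes described, 37.5% were past 2-fold lower. Primitive red cell markers went both ways, with 3 of 9 past 2-fold higher and 3 lower. Summed, these red cell markers were 14.2-fold higher in *tuft*. The part of yolk sac endoderm or of red cells in the counts of *Pklr* was not tested. *Aldoc* had 0 and 59 counts, at least 6.75-fold lower. *Gapdhs*, the form known from sperm, had 181 and 96 counts, with a fold change of 5.49 (4.26 to 7.11), and thus more counts than *Gapdh* in *tuft*. Of transcript windows, 88.0% had a copy elsewhere for *Gapdh* and 0 for *Gapdhs*. Alignments that were not unique were not counted, so these counts cannot rank the 2 genes. *Ldhb*, the heart form of lactate dehydrogenase, had 186 and 511 counts, with a fold change of 1.06 (0.891 to 1.26). Per kilobase it made up 0.998% of the summed level of *Ldha* and *Ldhb* in *tuft* and 1.21% in wild type. *Bpgm*, which makes the 2,3-bisphosphoglycerate of red cells, had a fold change of 1.41 (1.26 to 1.57). *Pgam2* and *Ldhal6b* had 0 counts in *tuft* and 14 and 15 in wild type, at least 1.60-fold and 1.72-fold lower.

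**Figure D5:**
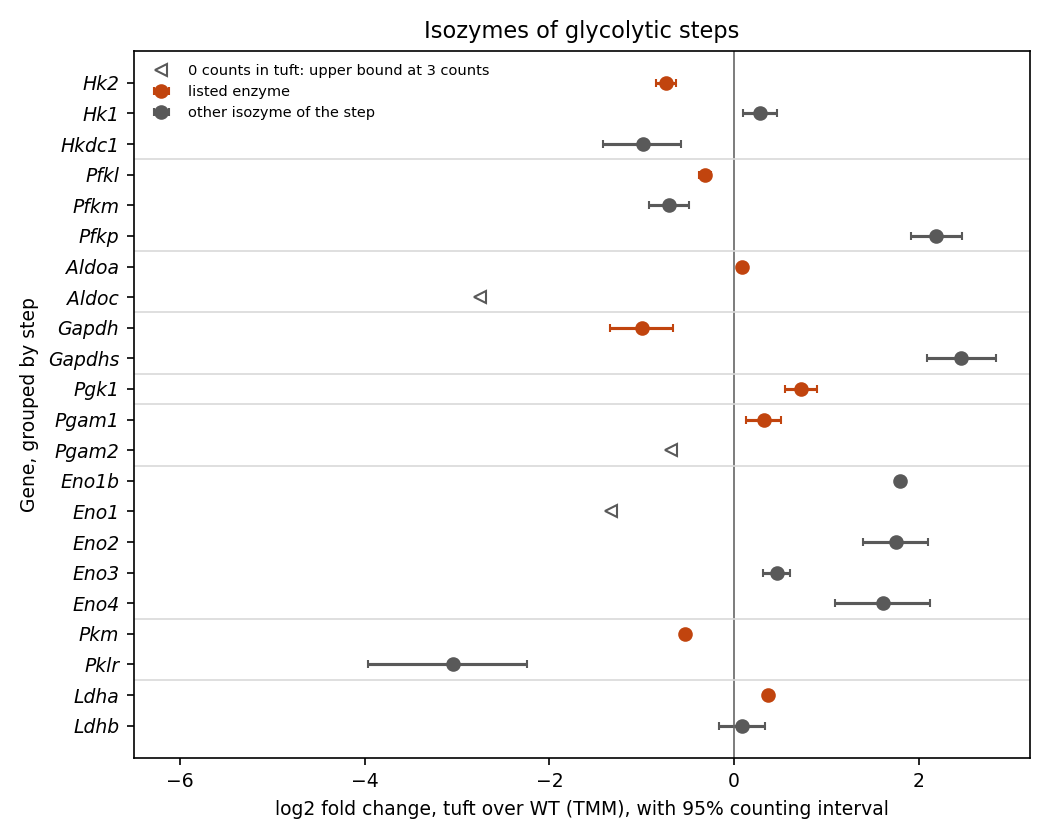
Log2 fold change of *tuft* over wild type with 95% counting interval for 8 of the 10 enzymes (red; *Gpi1* and *Tpi1* have no other isozyme listed and are left out) and other isozymes (gray), grouped by step. Open triangles mark genes with 0 counts in *tuft* at the bound that 3 counts allow. The red points lie between -0.99 (*Gapdh*) and 0.72 (*Pgk1*), whereas *Gapdhs* reaches 2.46 and *Pklr* -3.04.

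At the 2 ends of the pathway, glucose enters and lactate leaves the cell through transporters. Of 9 transporter genes tested, 3 were past 2-fold higher and 3 lower, 66.7% in all, near the 58.9% of all genes. The main glucose transporters were near their wild-type levels: *Slc2a3* had 10021 counts in *tuft* against 25144 in wild type, with a fold change of 1.16 (1.13 to 1.19), and *Slc2a1* had 7089 and 13985, a fold change of 1.48 (1.43 to 1.52). *Slc16a1*, a monocarboxylate transporter that carries lactate, had 13704 and 5064 counts, with a fold change of 7.88 (7.63 to 8.14). *Slc16a3*, a lactate exporter of glycolytic cells, had 772 and 4432 counts, with a fold change of 0.507 (0.469 to 0.548). *Bsg*, the chaperone of both, had 1458 and 10008 counts, with a fold change of 0.424 (0.401 to 0.448). *Slc2a8* was 3.61-fold higher (2.90 to 4.51). *Slc2a4*, the insulin-dependent transporter, had 1 count in *tuft* against 141 in wild type (fold change 0.0207, 0.000519 to 0.117), and *Slc2a2*, known from liver and yolk sac, had 0 and 507, at least 58.0-fold lower.

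Of 21 regulators tested, 2 were past 2-fold higher and 7 lower, with a median log2 fold change of -0.33. This is 42.9% in all, beside the 58.9% of all genes. *Hif1a*, the hypoxia-inducible factor, had 198 and 1079 counts, with a fold change of 0.534 (0.457 to 0.622). *Pdk1*, a kinase of pyruvate dehydrogenase, had a fold change of 1.30 (1.20 to 1.42). Both differences were within 2-fold. Genes past 2-fold included *Pfkfb2*, which makes an activator of phosphofructokinase, 3.98-fold higher (3.22 to 4.93), and *Pdk2*, 3.90-fold higher (2.82 to 5.42). *Egln3*, a hydroxylase that marks hypoxia-inducible factors for breakdown, had 0 counts in *tuft* against 277 in wild type, at least 31.7-fold lower. *Pdp2*, a phosphatase of pyruvate dehydrogenase, had 3 and 194 counts (fold change 0.0450, 0.00921 to 0.134). Among 18 hypoxia-induced genes outside glycolysis, 2 were past 2-fold higher and 7 lower, 50% in all, beside the 58.9% of all genes. These 18 ranged from *Anxa2*, with 3 and 827 counts (fold change 0.0106, 0.00217 to 0.0310), to *Ndrg1*, 5.52-fold higher (4.22 to 7.25). *Ankrd37* had 0 and 108 counts, at least 12.4-fold lower, and *Bnip3l*, which removes mitochondria, was 3.16-fold higher (2.92 to 3.41). *Vegfa* had a fold change of 0.684 (0.613 to 0.761). The median log2 fold change of the 18 genes was -0.74, against -0.45 for all 13979 genes.

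Of 16 genes other than *Gapdh* that serve as references in expression studies, 3 were past 2-fold higher and 6 lower, 56.2% in all, near the 58.9% of all genes. *Actb* had a fold change of 1.63 (1.60 to 1.66), so that the ratio of *Gapdh* to *Actb* counts was 0.308-fold in *tuft*. *Ywhaz* was 2.86-fold higher (2.73 to 3.00) and *Tuba1b* 2.16-fold, whereas *Tbp* was lower (0.230). Scaled to *Gapdh* in place of TMM, every fold change in these libraries would be 1.99 times as high. Both values rest on 86 *Gapdh* counts in *tuft*, with a fold change of 0.502 (0.394 to 0.632). Of its transcript windows, 88.0% had a copy elsewhere, and alignments that were not unique were not counted. Both values thus describe only the counted part of *Gapdh*. They concern the pooled libraries, and no qPCR value was analyzed here.

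TET1 is known to bind promoters rich in CG dinucleotides. RefSeq lists a start for all 10 genes in GRCm38.p6, and more than 1 for *Aldoa*, *Pkm* and *Ldha*. In windows from 250 bases before to 50 after the first listed start, the 10 genes had a median of 22.5 CG dinucleotides, against 7 over the 27018 genes listed. *Ldha* and *Pgam1* had the most, 30 each, and the first of 3 windows of *Aldoa* had 0. The core of the hypoxia response element, ACGTG or GCGTG on either strand, was found in 6 of the 10 windows and in 43.8% of all windows, and the E-box CACGTG, which contains that core on both strands, in 1 of the 10 and in 7.24% of all. Both motifs contain CG, and these shares were not matched for the CG content of the windows. The windows of the genes with the lowest and highest fold change and with the most counts are shown, read along the strand of the gene, with the hypoxia core in capitals. *Gpi1* lies on the minus strand of chromosome 7 (chr7:34230287-34230586), *Pgk1* on the plus strand of chromosome X (chrX:106186850-106187149), *Pkm* on the plus strand of chromosome 9 (chr9:59656326-59656625) and *Ldha* on the plus strand of chromosome 7 (chr7:46845554-46845853).
Gpi1: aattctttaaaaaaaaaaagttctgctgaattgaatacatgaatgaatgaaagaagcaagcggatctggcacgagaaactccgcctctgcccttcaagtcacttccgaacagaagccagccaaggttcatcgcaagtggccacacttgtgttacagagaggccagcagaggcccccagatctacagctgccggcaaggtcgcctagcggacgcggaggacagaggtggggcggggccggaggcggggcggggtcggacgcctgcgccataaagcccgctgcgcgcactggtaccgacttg
Pgk1: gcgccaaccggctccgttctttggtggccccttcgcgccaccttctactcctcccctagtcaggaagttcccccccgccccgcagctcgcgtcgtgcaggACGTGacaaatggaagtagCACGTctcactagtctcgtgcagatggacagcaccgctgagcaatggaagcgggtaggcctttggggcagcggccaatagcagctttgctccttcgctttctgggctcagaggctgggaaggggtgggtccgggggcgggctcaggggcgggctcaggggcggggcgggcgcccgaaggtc
Pkm: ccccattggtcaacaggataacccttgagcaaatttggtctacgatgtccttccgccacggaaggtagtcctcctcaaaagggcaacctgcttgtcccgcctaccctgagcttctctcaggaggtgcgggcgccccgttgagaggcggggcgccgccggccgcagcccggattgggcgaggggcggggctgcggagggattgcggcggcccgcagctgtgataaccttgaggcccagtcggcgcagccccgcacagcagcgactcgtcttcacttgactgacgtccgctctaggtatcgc
Ldha: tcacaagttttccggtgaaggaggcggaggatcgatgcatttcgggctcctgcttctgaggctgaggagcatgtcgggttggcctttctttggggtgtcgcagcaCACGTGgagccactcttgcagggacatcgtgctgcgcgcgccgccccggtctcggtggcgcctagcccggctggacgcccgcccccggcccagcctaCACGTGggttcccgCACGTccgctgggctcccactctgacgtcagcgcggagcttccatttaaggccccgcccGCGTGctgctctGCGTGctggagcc
These letters occur at 7 positions in *Ldha*, counting each of its 2 E-boxes on both strands, and at 2 in *Pgk1*. Neither *Gpi1* nor *Pkm* has them in its window, which says nothing of sequence outside it. *Ldha* and *Pgk1* were higher and *Gpi1* and *Pkm* lower in *tuft* after TMM normalization, a description of 4 genes. Of the other members with the core, *Hk2* (2 positions), *Gapdh* (3) and *Pfkl* (1) were lower and *Pgam1* (3) was higher. Of those without it, *Tpi1* was lower and *Aldoa* higher.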

How the data were processed

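Rostrum RNA of E9 wild-type and *tuft* embryos was pooled from 3 embryos per library, poly-A selected and sequenced as single-end Ion Proton reads. The authors trimmed reads with PRINSEQ, aligned them to mm10 with TopHat2 2.0.14 and Bowtie2 2.2.5 and counted them per gene with HTSeq, whose version and strand setting are not given in the sources used here. The deposited values are raw counts, with 5 summary lines per column that were kept out of totals and folds. In *tuft* 27.4% and in wild type 37.3% of entries fell on genes.

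With 1 library per genotype no test was made, and the study's NOISeq-sim was not run here. TMM, upper-quartile and size factors came from edgeR 4.0.16 and DESeq2 1.42.0 in R 4.3.3, and exact binomial intervals (Clopper-Pearson) and Poisson intervals of levels from Python 3.11.15 with scipy 1.17.1. Intervals cover counting error only, since 1 library per genotype shows no variation between libraries. Reads carry no molecular identifiers, so amplified duplicates of a molecule are counted separately and the intervals may be too narrow. Genes that reached 10 counts over both libraries were described, and 2-fold was the limit. For limits and medians, counts under 3 were set to 3, which is 0.466 (*tuft*) or 0.210 (wild type) CPM. The calculation was tested on simulated counts in which most genes were unchanged and equal numbers were set higher and lower. In these libraries 58.9% of the described genes were past 2-fold, 37.5% lower and 21.3% higher. The simulation therefore cannot show that the TMM factor is right for them. Levels per kilobase use the longest coding transcript of GENCODE M1 (NCBIM37), in which *Pkm* is named *Pkm2*. Windows of 100 bases every 10 bases were aligned with BLAST 2.17.0, keeping matches over at least 95% of a window. Positions and promoters are from RefSeq for GRCm38.p6, the assembly of mm10.

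The members and lists were chosen with earlier results of these data known. Named genes are the 10 enzymes, *Tet1*, isozymes with at least 10 counts and, of other lists, the 2 highest and 2 lowest fold changes among genes with at least 100 counts. Some genes that this rule names are not reported here. For cell markers only totals are given, with single genes chosen after their values were seen. *Eno1b*, *Gm6981*, *Gm12070*, *Gm13315*, *Aldoart2*, *Slc2a1*, *Slc2a3*, *Slc16a3*, *Bsg*, *Hif1a*, *Pdk1*, *Vegfa* and *Actb* were named after their values were seen. Other scalings, count minima, fold limits and denominators were tried as alternatives.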

Additional observations from a re-analysis of the deposited data

Results flagged for a closer look

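Alignments that were not unique lie outside the gene counts and made up 59.2% of all entries in the *tuft* library, above the 51.4% of the wild-type library. These are shares of entries rather than of reads, since 1 read with several alignments has several entries. Of the 10 enzymes, 8 have over 60% of their transcript windows copied elsewhere in the genome. How many of these entries come from their transcripts was not tested, since the summary line names no gene.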

How the results depend on the processing

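Of 40 fold changes of single enzymes under other scalings, 37 kept the sign they had with TMM. The 3 others were those of *Aldoa* (-0.31 on the log2 scale), *Pgam1* (-0.08) and *Ldha* (-0.03) with library totals alone. The number of enzymes past 2-fold, 1 and lower with TMM, was 4 (all lower) with library totals, 2 (both lower) with the upper quartile and 1 with DESeq2's size factors and with the median ratio of reference genes. The share of all 13979 genes past 2-fold was 61.8%, 59.2%, 58.7% and 58.9% under these. At 1.5-fold it was 5 enzymes, with 1 higher and 4 lower, beside 74.9% of all genes, and at 4-fold 0, beside 30.8%. The median log2 fold change was -0.82 with library totals and -0.31 with reference genes, where all genes moved by as much, and -0.53 without the 3 enzymes copied most, which was chosen after seeing the data, as was setting counts of 0 to 0.5, which changed neither value. Count minima of 1 or 100 changed neither. The share of gene counts was 0.913% in *tuft* and 1.32% in wild type without *Rn45s* and globin genes, and 0.278% and 0.434% without the 10 genes with most counts in either library, which leaves out *Pkm* and *Ldha*. No paired analysis was possible because each genotype has 1 column of counts. For the same reason no library could be left out. *Gapdh* rests on 86 counts in *tuft*, the fewest of the 10.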

Other observations

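Pathways around glycolysis were measured in the same libraries, in which 58.9% of all genes were past 2-fold. In the pentose phosphate branch, which leaves the pathway at glucose-6-phosphate, 1 of 8 genes was past 2-fold higher and 2 lower, and the median log2 fold change was -0.82. *Pgd*, which makes NADPH, had 567 counts in *tuft* against 5008 in wild type (fold change 0.330, 0.302 to 0.360), and *H6pd* 4 and 375 (0.0311, 0.00842 to 0.0802), whereas *Rpe* was 3.54-fold higher (3.05 to 4.11) and *Rpia* had 1.88 (1.56 to 2.26). Of the 13 tested genes of gluconeogenesis and glycogen metabolism, 2 were higher and 4 lower. Among those with at least 100 counts over both libraries, the lowest and highest were *Pcx*, pyruvate carboxylase, at 0.228 (0.165 to 0.309) and *Gbe1* at 0.249 (0.147 to 0.399), and *Ugp2* at 3.39 (2.79 to 4.14) and *Slc37a4*, the glucose-6-phosphate carrier, at 8.17 (7.25 to 9.22).

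Of 7 genes of pyruvate dehydrogenase and the pyruvate carrier, 1 was past 2-fold higher and 1 lower. *Dld*, a subunit shared by several dehydrogenase complexes, had 1781 counts in *tuft* against 589 in wild type, 8.81-fold higher (8.02 to 9.68), and *Pdha1* had 541 and 3632, a fold change of 0.434 (0.396 to 0.475). *Dlat* (0.928) and the carrier gene *Mpc2* (1.95) were within 2-fold. In the citric acid cycle 2 of 16 genes were higher and 6 lower. Subunits of succinate dehydrogenase differed in direction: *Sdhb* had 110 and 3021 counts (0.106, 0.0868 to 0.128) and *Sdhc* 78 and 1465 (0.155, 0.122 to 0.195), while *Sdhd* was 2.33-fold higher. *Suclg2* had 1115 against 541 counts, a log2 fold change of 2.59. Of 82 nuclear genes of oxidative phosphorylation, 23 were higher and 29 lower, 63.4% in all, from *Ndufs6* with 2 and 844 counts (0.00690, 0.000834 to 0.0250) and *Ndufb3* with 0 and 612 (at least 70.1-fold lower) to *Uqcrh* (7.98-fold) and *Ndufb2* (61.4-fold, 55.8 to 67.7). In the same libraries the 10 glycolysis enzymes spanned a 4.17-fold range of fold changes. A range widens with more genes and with fewer counts, so the ranges of 10 and 82 genes are not comparable. The median log2 fold change was -0.42 for the enzymes and -0.19 for oxidative phosphorylation. The difference between these lists was not tested.

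Markers of other cells moved in several directions. Of 8 surface ectoderm markers, 1 was past 2-fold higher and 2 lower, 37.5% in all. Of 8 blood vessel markers, 1 was higher and 4 lower (62.5%). Of 10 markers of head mesenchyme and neural crest, 3 were higher and 1 lower (40%). Of 10 rostral neuroectoderm markers 2 were higher and 2 lower (40%). Among all genes, 58.9% were past 2-fold. The summed level of 9 primitive red cell markers was 40869 normalized CPM in *tuft* and 2873 in wild type, with *Hbb-y* and *Hba-x* at 18521 and 21165 in *tuft* and at 571 and 1235 in wild type, *Hbb-bh1* at 1017 and 944, and *Gata1* and *Klf1* at 0 counts in *tuft*. The part of these cells in the levels of the glycolysis enzymes was not tested.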
